A study of Mus musculus with 4 samples.

Results

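The 10 genes described here make fatty acids and place them in triglycerides, out of 32285 genes counted in single cells of mouse liver. They were taken as a named list of pathway genes, with no threshold on their values: the citrate-cleaving enzyme Acly, the malonyl-CoA-making carboxylase Acaca, the fatty acid synthase Fasn, the NADPH-producing malic enzyme Me1, the stearoyl-CoA desaturases Scd1 and Scd2, the elongases Elovl5 and Elovl6, the transcription factor gene Srebf1 and the acyltransferase Dgat2. The livers came from male offspring of control mothers (Ctrl) or of mothers with hyperglycemia in pregnancy (intrauterine hyperglycemia, IHG), either as fetuses at E18.5 (embryonic days) or as adults at 8 weeks. The labels name no strain and do not say how hyperglycemia was brought about. Each of the 4 groups was 1 droplet library of pooled animals (3 pregnant mice for a fetal library, 3 adults for an adult library). With 1 library per group no difference has a replicate check, no test was run, and all intervals given are 95% intervals for counting error only.

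De novo lipogenesis turns citrate that leaves the mitochondrion into palmitate: Acly releases cytosolic acetyl-CoA, Acaca carboxylates it to malonyl-CoA and Fasn builds the chain with NADPH. Elovl6 then lengthens palmitate, Scd1 and Scd2 introduce the first double bond, Elovl5 lengthens polyunsaturated chains, and Dgat2 joins a fatty acyl group to diacylglycerol. In liver the pathway is carried out by hepatocytes and is governed by insulin through SREBP-1c, a product of Srebf1, and by glucose through the factor encoded by Mlxipl.

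The genes are protein-coding, and on mm10 Scd1 (chr19:44394455-44407879, minus strand) and Scd2 (chr19:44293674-44306864, plus strand) are both on chromosome 19. Fasn (chr11:120805846-120824547, minus strand), Acly (chr11:100476353-100528000, minus strand), Acaca (chr11:84129672-84401651, plus strand) and Srebf1 (chr11:60199089-60222581, minus strand) lie on chromosome 11. The library type reads the 3′ ends of transcripts, so paralogs can be told apart where those ends differ. The longest run of bases shared by Scd1 and Scd2 transcripts was 147 bases, but within their last 500 bases it was 14, and for Elovl5 and Elovl6 it was 21 and 11. RefSeq promoter windows of GRCm38.p6, from 250 bases before to 50 bases after a transcript start, matched 7 of the 10 genes. The windows of Fasn (chr11:120824498-120824797, minus strand) and Acly (chr11:100527951-100528250, minus strand) are shown because these genes make the substrate and the chain and were both lower in IHG hepatocyte-like cells. Capitals mark matches to the CCAAT box, read as CCAAT on either strand.
Fasn: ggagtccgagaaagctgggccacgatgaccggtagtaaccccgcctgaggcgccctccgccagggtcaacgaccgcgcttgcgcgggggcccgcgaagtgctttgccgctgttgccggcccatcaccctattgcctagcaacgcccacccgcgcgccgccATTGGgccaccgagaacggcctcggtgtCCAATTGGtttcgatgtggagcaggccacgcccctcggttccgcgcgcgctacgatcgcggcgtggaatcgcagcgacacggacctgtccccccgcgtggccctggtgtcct
Acly: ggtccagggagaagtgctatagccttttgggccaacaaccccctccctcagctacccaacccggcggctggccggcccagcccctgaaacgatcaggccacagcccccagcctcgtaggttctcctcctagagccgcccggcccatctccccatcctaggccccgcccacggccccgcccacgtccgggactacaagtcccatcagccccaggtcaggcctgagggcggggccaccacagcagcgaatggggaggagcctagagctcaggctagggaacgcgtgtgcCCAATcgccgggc
The Fasn window held 3 CCAAT matches, 2 of which overlap on opposite strands, and the Acly window held 1. CCAAT occurs in 37.41% of the 32851 RefSeq promoter windows of that length. Neither window held the sterol regulatory element letters TCACNCCAC (1.242% of all windows) or the E-box CACGTG (7.15%) on either strand, which says only that these letters are not in these bases.

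The fetal libraries held 8500 (Ctrl) and 8739 (IHG) barcodes with a median of 6645 and 9116 unique molecular identifiers (UMIs, counts of distinct RNA molecules), and the adult libraries 5245 and 6851 barcodes with a median of 2558 and 2235. After filters 7573, 7922, 4954 and 6457 cells remained in that order, and any pair of libraries shared between 8 and 26 barcodes. Cells were clustered without the 10 genes, and clusters were called X-like from marker lists. UMIs were summed over the cells of a class in each library and given per 1000000 UMIs of the class total (CPM). Haemoglobin genes made up 35.4% of fetal Ctrl and 20.4% of fetal IHG UMIs, so the libraries differed in red cell RNA, and differences were also read against the median log2 ratio of all genes with at least 20 UMIs in the same class. A gene is called measured in a class when it had at least 20 UMIs over both libraries. The adult suspension gave no hepatocyte-like cluster. Its cholangiocyte-like cluster had Alb and Ttr, which hepatocytes make, among its leading genes. Fetal macrophage-like cells numbered 6 in Ctrl and 347 in IHG, so no comparison was made there.

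**Figure D1:**
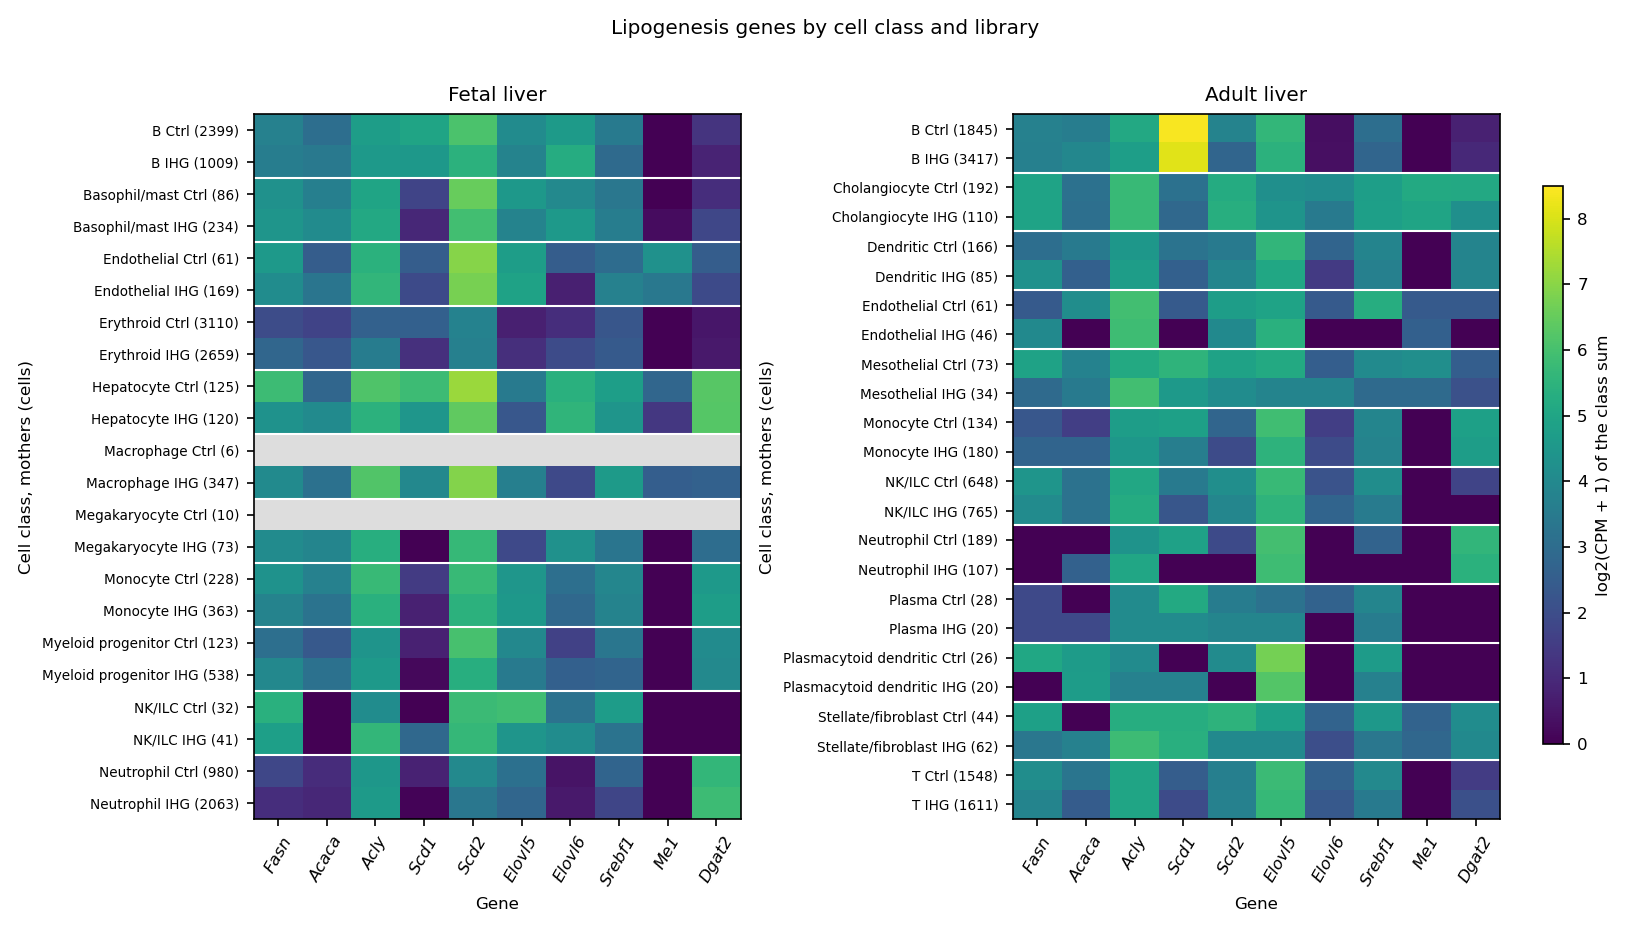
Level of each gene, as log2(CPM + 1) of the class sum, for each cell class (rows, cells in brackets) and library, in fetal (left) and adult (right) liver. Grey rows had under 20 cells. Scd1 is brightest in adult B-like cells (337 CPM in Ctrl, 274 in IHG), Scd2 is bright in fetal hepatocyte-like and endothelial-like cells, and Me1 is dark in most rows.

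Fetal hepatocyte-like cells (125 in Ctrl, 120 in IHG, all in 1 cluster led by Ahsg, Alb and Apoa1) had less RNA of the synthase and desaturase genes in the IHG library. Fasn, Scd1, Scd2 and Acly were lower with intervals below 0, Acaca was higher, and Elovl6, Srebf1 and Dgat2 had intervals that included 0. Over the 8 measured genes the median log2 ratio (IHG over Ctrl) was -0.53 and 6 were lower, while the median of all 6238 measured genes in these cells was 0.20 and 36.6% of them were lower. Of the 8, 2 were at least 2-fold lower, against a background of 6.14% of all measured genes, and 1 was at least 2-fold higher, against 10.6%.

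Acly, which supplies cytosolic acetyl-CoA, had 70 UMIs in Ctrl (69.9 CPM) and 54 in IHG (42.6 CPM), a log2 ratio of -0.71 (-1.25 to -0.18). Acaca, the enzyme that commits acetyl-CoA to fatty acids, had 6 and 20 UMIs (5.99 and 15.8 CPM), a log2 ratio of 1.40 (0.03 to 3.00). Fasn had 56 and 24 UMIs (55.9 and 18.9 CPM), a log2 ratio of -1.56 (-2.32 to -0.85). The carboxylase and the synthase that uses its product thus differed between the libraries in opposite directions, the former on few counts. No cell held more than 8.93% of the Ctrl Fasn UMIs, which came from 30 cells in Ctrl and 16 in IHG. Me1, a source of NADPH for chain building, had 6 and 2 UMIs and was not measured.

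The desaturases were both lower in the IHG library. Scd1 had 56 and 27 UMIs (55.9 and 21.3 CPM), a log2 ratio of -1.39 (-2.11 to -0.71), and Scd2, the form known from brain and from early life, had 150 and 108 UMIs (149.8 and 85.2 CPM), a log2 ratio of -0.81 (-1.18 to -0.45). Elovl6 had 41 and 59 UMIs (40.9 and 46.6 CPM), a log2 ratio of 0.19 (-0.41 to 0.80). Elovl5 had 10 and 5 UMIs and was not measured. The desaturases were thus lower while the interval of the elongase Elovl6 included 0, and the difference between these genes was not tested.

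Srebf1 had 26 UMIs in each library (26.0 and 20.5 CPM), a log2 ratio of -0.34 (-1.18 to 0.50). Dgat2, which closes triglyceride synthesis, had 78 and 96 UMIs (77.9 and 75.7 CPM), a log2 ratio of -0.04 (-0.49 to 0.41). Over all cells the intervals of both included 0. The value for Dgat2 differed between the alternatives run. It lay between -0.73 and 1.64, the latter in cells thinned to 1000 UMIs, on few counts and with an interval that included 0. Its interval was below 0 in 2 of 8 and above 0 in 0 of 8. The same cells thinned to 1000 UMIs each, 110 in Ctrl and 106 in IHG, carried a Fasn UMI in 6.36% and 0.943%, an Scd1 UMI in 7.27% and 0.943%, an Scd2 UMI in 14.5% and 3.77% and a Dgat2 UMI in 1.82% and 10.4% of cells. Before thinning, those shares were 24% and 13.3% for Fasn, 17.6% and 14.2% for Scd1, 32% and 32.5% for Scd2 and 23.2% and 32.5% for Dgat2, at a median of 3682 UMIs per cell in Ctrl and 6668.5 in IHG. Thinned neutrophil-like cells, which have little of either gene, carried Fasn in 0.207% and 0.0486% and Scd1 in 0.104% and 0.0486% of cells.

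Red cell RNA differed between the libraries in this class. Cells with over 10% haemoglobin UMIs numbered 29 of 125 in Ctrl, where they held 42.3% of the class UMIs, and 8 of 120 in IHG, where they held 5.09%. All 19 measured proliferation genes were lower in IHG over the whole class (median log2 ratio -1.35), and 8 of 16 were lower without those cells (median 0.03). Summed hepatocyte markers, none of 12 at 0, were 90859.9 and 146814 CPM over all cells and 138720.0 and 149293 CPM without the haemoglobin-rich ones, and summed neutrophil markers over all cells were 16241 and 22106 CPM.

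Without the haemoglobin-rich cells the genes that were lower lay farther below 0. Fasn had 49 and 23 UMIs (84.8 and 19.1 CPM), a log2 ratio of -2.15 (-2.93 to -1.41). Scd1 was at -2.003 (-2.73 to -1.31), Scd2 at -1.42 (-1.81 to -1.04) and Acly at -1.28 (-1.84 to -0.73). Dgat2 then had 71 and 89 UMIs (122.8 and 74.0 CPM) and a ratio of -0.73 (-1.20 to -0.26), Elovl6 was at -0.26 (-0.92 to 0.43), and Acaca at 0.68 (-0.69 to 2.29). In these cells 7 of 8 measured genes were lower (median -1.01, against 0.11 for all 5452 measured genes), 4 of 8 were at least 2-fold lower (background 2.75%) and 0 of 8 at least 2-fold higher (background 7.85%). Haemoglobin was then 1.54% and 0.717% of UMIs, and the ratios of Fasn, Scd1, Scd2 and Acly were farther from 0 than over all cells.

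**Figure D2:**
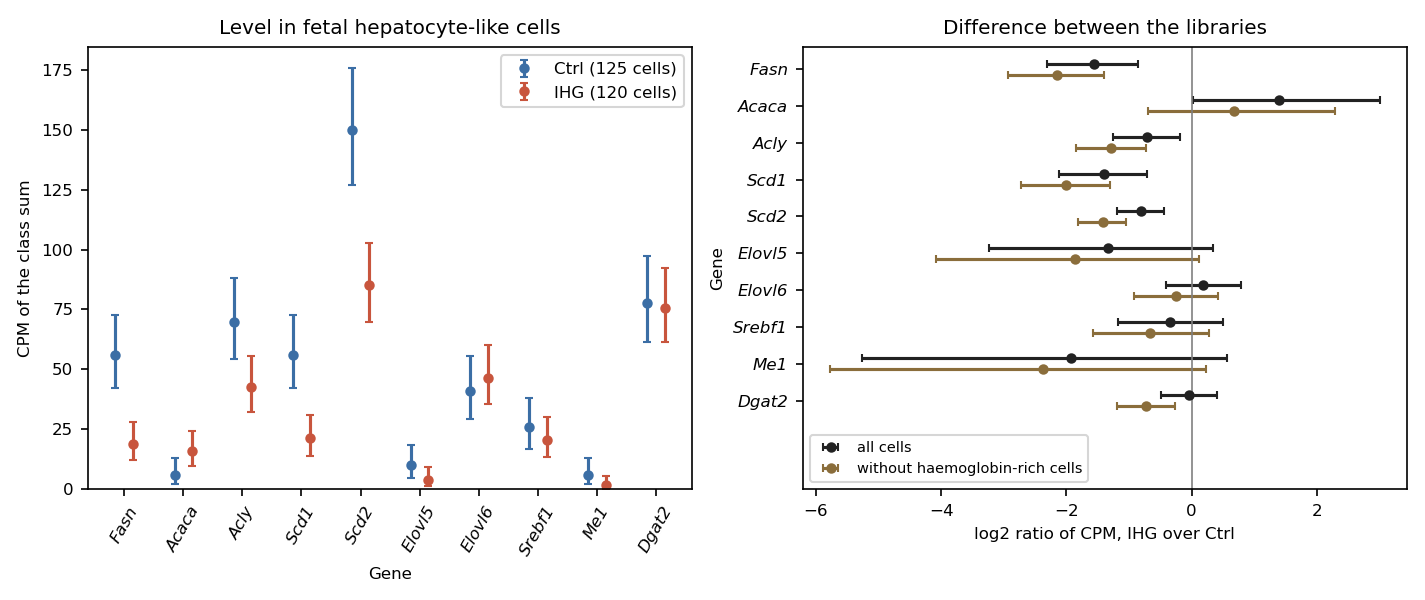
Left, CPM of each gene in fetal hepatocyte-like cells of the Ctrl (blue) and IHG (red) libraries with exact Poisson 95% intervals. Right, log2 ratio of IHG over Ctrl with exact conditional 95% intervals for all cells (black) and without haemoglobin-rich cells (brown). Fasn, Acly, Scd1 and Scd2 lie left of 0 in both sets, with Fasn at -1.56 and -2.15.

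Lists of related genes were read in the same hepatocyte-like cells to place the 10, against 63.4% of all measured genes higher in IHG over all cells (median 0.20) and 57.8% without haemoglobin-rich cells (median 0.11). Among polyunsaturated-fatty-acid enzymes, the desaturases Fads1 (40 and 25 UMIs, log2 ratio -1.02, -1.80 to -0.26) and Fads2 (46 and 35, -0.73, -1.41 to -0.07) were also lower, and stayed so without haemoglobin-rich cells (-1.60 and -1.22). Over that list of elongation and desaturation genes 6 of 12 measured were lower over all cells (median 0.12) and 8 of 12 without the haemoglobin-rich ones (median -0.19). Elovl2, which lengthens long polyunsaturated chains, was at -0.08 (-0.64 to 0.48) and then -0.79 (-1.36 to -0.21), and Tecr, the reductase that ends each round of elongation, at -0.02 (-0.26 to 0.22) and -0.19 (-0.46 to 0.09). Of the acetyl-CoA and NADPH suppliers, 6 of 12 were lower. The acetyl-CoA synthetase Acss2 was at -1.02 (-2.32 to 0.21) and -1.69 (-3.08 to -0.38) without haemoglobin-rich cells, while the malate dehydrogenase Mdh1 was higher at 1.08 (0.86 to 1.30) and 0.65 (0.41 to 0.89).

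Of the triglyceride assembly genes 11 of 14 measured were higher in the IHG library (median 0.40), and 9 of 13 without haemoglobin-rich cells (median 0.22), where the share was near that of all genes. Lpin1, the phosphatidate phosphatase, had 51 and 162 UMIs (1.33, 0.87 to 1.81, and 0.66, 0.18 to 1.17, without those cells). Of the lipid droplet and lipolysis genes 7 of 9 were higher (median 0.35), but 5 of 8 were lower without those cells (median -0.16). G0s2, an inhibitor of lipolysis on lipid droplets, had 111 and 285 UMIs (1.02, 0.70 to 1.35, and 0.62, 0.27 to 0.98). Among regulators of the pathway 8 of 14 were higher (median 0.15), no more than among all genes, and 8 of 14 were lower without those cells (median -0.30), where 42.2% of all genes were lower. Insig1, which retains the SREBP escort protein, had 89 and 92 UMIs and was at -0.29 (-0.73 to 0.145) and -0.86 (-1.32 to -0.39) without haemoglobin-rich cells, and Mlxipl, with 9 and 11 UMIs, was at -0.05 (-1.46 to 1.40). Trib1, whose product limits lipogenesis in hepatocytes, had 23 and 69 UMIs (1.25, 0.55 to 1.99, and 0.96, 0.18 to 1.82).

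Of the cholesterol synthesis genes, which SREBP-2 controls, 15 of 20 were higher over all hepatocyte-like cells, with a median of 0.19 that is close to the 0.20 of all genes. Without haemoglobin-rich cells 15 of 20 were lower (median -0.40), against 0.11 for all genes, so their direction rested on those cells. Dhcr7, the last reductase of the pathway, was low in both sets (36 and 20 UMIs, -1.19, -2.05 to -0.36, and -1.78, -2.66 to -0.94). Hmgcs1 was higher over all cells (140 and 267 UMIs, 0.59, 0.29 to 0.90) and at -0.04 (-0.35 to 0.28) without them.

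Erythroid-like cells of the fetal liver had the pathway at levels of 0 to 12.8 CPM, and Scd1 was the member lower in the IHG library there with an interval below 0. Scd1 had 229 UMIs in 3110 Ctrl cells (5.07 CPM) and 64 in 2659 IHG cells (1.24 CPM), a log2 ratio of -2.03 (-2.45 to -1.62). Over the whole class 7 of 9 measured members were higher in IHG, no more than the 89.2% of all genes that were higher. Scd2, with 577 and 611 UMIs, was at -0.11 (-0.27 to 0.06). Fasn had 132 and 312 UMIs (1.05, 0.75 to 1.36), Acly 237 and 556 (1.04, 0.82 to 1.27) and Elovl6 52 and 147 (1.31, 0.85 to 1.80). Those 3 genes passed the 2-fold mark upwards out of 9 measured, against a background of 30.8% of all 11297 genes, and Scd1 passed it downwards, against 0.894%. Haemoglobin was 53.1% of Ctrl and 36.9% of IHG UMIs in this class, and the median of all genes was itself at 0.70. Relative to that shift the 10 genes did not stand out upwards (median of the 9 measured 0.79), and 4 of 9 were lower when counts were scaled by the median of ratios or by the total without haemoglobin, mitochondrial and ribosomal genes.

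The class also differed in stage. Cluster 10, which had the lowest haemoglobin share (8.54% in Ctrl, 3.05% in IHG) and Car1 among its leading genes, held 7.68% of the Ctrl and 21.8% of the IHG erythroid-like cells. Lipogenic RNA was highest in that cluster, so the class sums mix stages in different proportions, and values were compared within clusters, where the median of all genes was between 0.07 and 0.21.

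Within cluster 10 Fasn had 70 and 280 UMIs (11.03 and 14.3 CPM), a log2 ratio of 0.37 (-0.01 to 0.77), Acaca was at -0.08 (-0.53 to 0.39) and Elovl6 at 0.40 (-0.15 to 0.98). Acly was at 0.35 (0.05 to 0.66), which is close to the cluster's own median of 0.21. Scd1, in contrast, had 102 and 47 UMIs (16.1 and 2.40 CPM), a log2 ratio of -2.74 (-3.27 to -2.23). Scd2 had 323 and 512 UMIs in unequal totals (50.9 and 26.1 CPM), a log2 ratio of -0.96 (-1.16 to -0.76). Srebf1 had 75 and 169 UMIs (11.8 and 8.63 CPM), a log2 ratio of -0.45 (-0.85 to -0.04). The desaturases and Srebf1 were therefore lower in the early cells of the IHG library while the enzymes that build the chain were not.

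The next stage, cluster 7 (haemoglobin 16.3% and 16.6%), had Scd1 at 64 and 7 UMIs (11.48 and 1.04 CPM), a log2 ratio of -3.47 (-4.84 to -2.34), and Scd2 at 119 and 41 UMIs (21.3 and 6.09 CPM, -1.81, -2.36 to -1.29). Fasn there had 39 and 14 UMIs (-1.75, -2.75 to -0.84), Srebf1 52 and 31 (-1.02, -1.71 to -0.35) and Acly 54 and 66 (0.02, -0.52 to 0.56). In cluster 6 Scd1 had 35 and 2 UMIs (3.48 and 0.271 CPM), a log2 ratio of -3.68 (-6.78 to -1.72). Scd1 and Scd2 were each lower in IHG in 6 of 6 erythroid-like clusters, with intervals below 0 in 4 for each gene. No other member was lower in all 6 clusters: Fasn was lower in 3 and Acly in 2.

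Markers of other cells in the erythroid-like class were low and moved with the libraries. Summed B markers were 59.8 CPM in Ctrl and 36.4 CPM in IHG, against 10985 and 12254 CPM in B-like cells, and summed hepatocyte markers were 55.0 and 135.3 CPM, against 90859.9 and 146814 CPM in hepatocyte-like cells. B-like cells had Scd1 at 30.1 and 22.4 CPM and hepatocyte-like cells at 55.9 and 21.3 CPM. In cluster 10 the B markers were 90.8 CPM in Ctrl and 53.5 CPM in IHG beside Scd1 at 16.1 and 2.40 CPM. Both the B markers and Scd1 were lower in the IHG library in that cluster, while the hepatocyte markers were higher in the IHG library over the class. The part of RNA from other cells in the Scd1 difference was not tested.

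**Figure D3:**
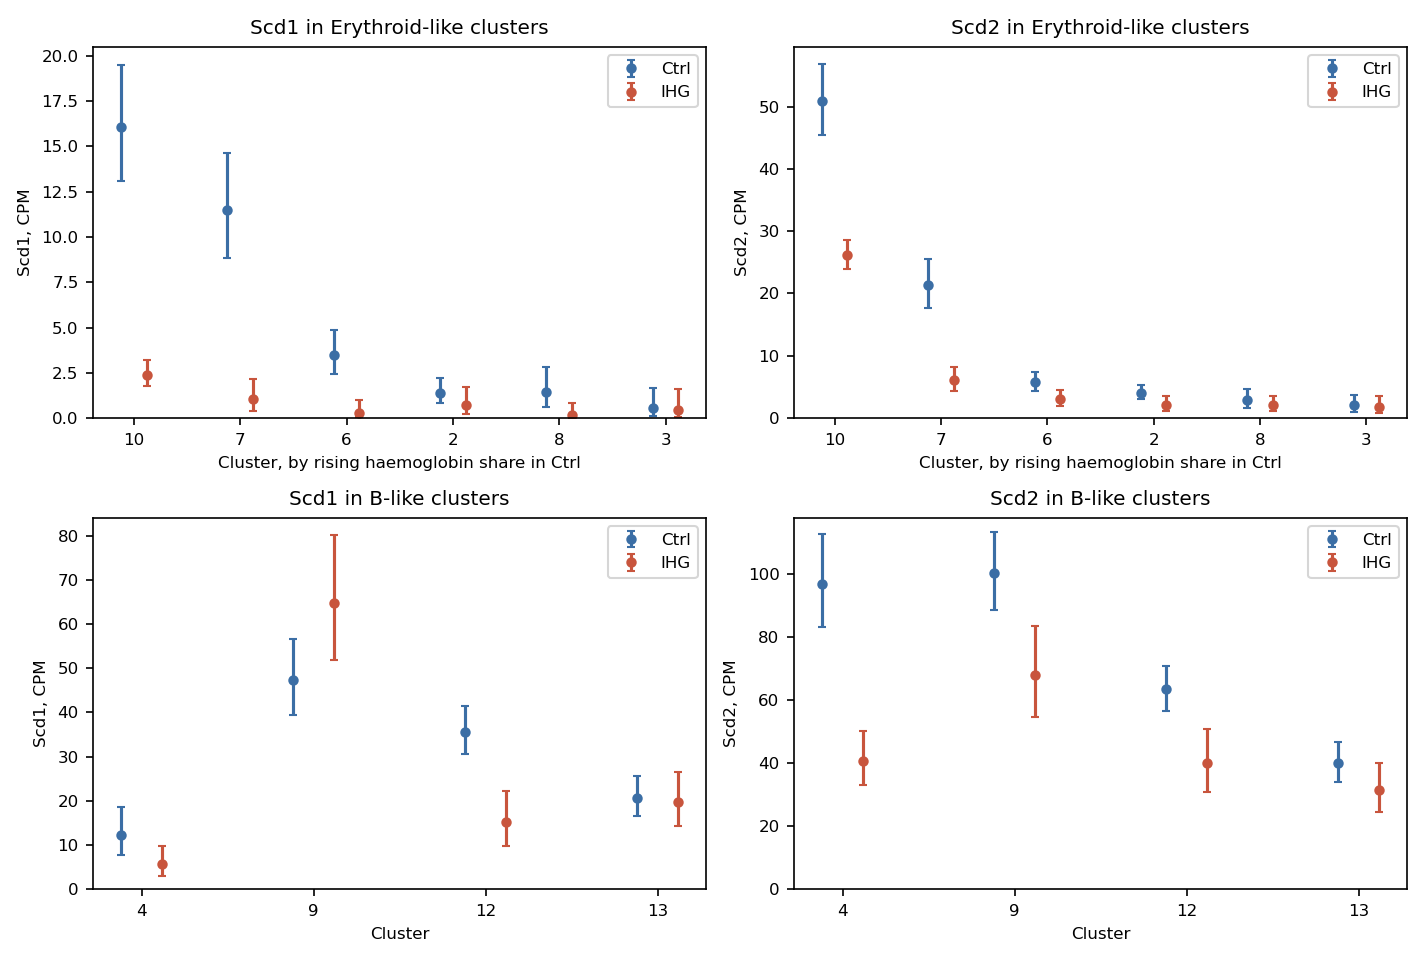
CPM of Scd1 (left) and Scd2 (right) in fetal erythroid-like clusters ordered by rising haemoglobin share in Ctrl (top) and in fetal B-like clusters (bottom), with exact Poisson 95% intervals, Ctrl in blue and IHG in red. In the erythroid-like clusters Scd1 is 16.1 against 2.40 CPM at the earliest stage, and Scd1 in B-like cluster 9 is the panel's exception, at 47.4 against 64.8 CPM.

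Fetal B-like cells (2399 in Ctrl, 1009 in IHG) had RNA of all members except Me1, which had 0 UMIs in both libraries. The IHG library had less Scd2 and Scd1 and more Elovl6. Scd2 had 906 and 316 UMIs (67.6 and 42.6 CPM), a log2 ratio of -0.67 (-0.86 to -0.48), and Scd1 404 and 166 UMIs (30.1 and 22.4 CPM), a ratio of -0.43 (-0.70 to -0.17). Elovl6 had 320 and 280 UMIs (23.9 and 37.7 CPM), a ratio of 0.66 (0.42 to 0.90), and Srebf1 135 and 50 UMIs (10.1 and 6.74 CPM), a ratio of -0.58 (-1.08 to -0.10). Fasn (165 and 82 UMIs, -0.16, -0.56 to 0.23) and Acly (346 and 174, -0.14, -0.41 to 0.13) had intervals that included 0. Of 9 measured members 7 were lower (median -0.28, all genes 0.19), against 32.0% of all genes in this class. Of the 9, 0 were at least 2-fold lower or higher, against backgrounds of 3.75% and 4.2%.

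B-like cells also fell into stages in different proportions. Cluster 4, led by the surrogate light chain genes Vpreb1 and Igll1, held 20.4% of the Ctrl and 39.3% of the IHG cells, and cluster 9, led by light chain constant region genes, held 37.7% and 33.7%. Scd2 was lower in IHG in 4 of 4 B-like clusters, with the interval below 0 in 3, from -1.25 (-1.63 to -0.88) in cluster 4 to -0.34 (-0.77 to 0.07) in cluster 13. Scd1 was lower in 3 of 4, at -1.24 (-1.91 to -0.63) in cluster 12, and higher in cluster 9 (122 and 85 UMIs, 0.45, 0.04 to 0.86). Elovl6 was higher in IHG in 3 of 4, at 0.16 (-0.25 to 0.57) in cluster 4 and 0.59 (0.02 to 1.15) in cluster 12. Its level was highest in clusters 4 and 13, which hold surrogate light chain cells. The larger share of cluster 4 in IHG thus also enters the class ratio of Elovl6. In cluster 13 haemoglobin was 19.8% of Ctrl and 1.36% of IHG UMIs, and the cluster's median of all genes was 0.41, so its ratio of 0.77 (0.35 to 1.18) for Elovl6 was 0.35 above that median.

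Fetal neutrophil-like cells (980 in Ctrl, 2063 in IHG) had Dgat2 in 30.2% and 33.7% of cells, while Fasn, Acaca, Scd1 and Elovl6 had 0.0569 to 2.50 CPM. Dgat2 had 384 and 981 UMIs (47.9 and 55.8 CPM), a log2 ratio of 0.22 (0.05 to 0.39) that is close to the class median of 0.24 and is -0.0079 under median-of-ratios scaling. Srebf1 had 45 and 42 UMIs (5.62 and 2.39 CPM, -1.23, -1.87 to -0.59), Fasn 20 and 20 (2.50 and 1.14 CPM, -1.13, -2.10 to -0.16) and Scd2 119 and 165 (14.9 and 9.39 CPM, -0.66, -1.01 to -0.31). Of 7 measured members 5 were lower (median -0.38), against 28.6% of all genes in this class. Of the 7, 2 were at least 2-fold lower (background 3.57%) and 0 at least 2-fold higher (background 4.63%). Srebf1 and Scd2 were each lower in 3 of 3 neutrophil-like clusters, with intervals below 0 in 2, and Fasn and Elovl5 in 3 of 3 with intervals below 0 in none. Clusters 0 and 5 held 40.3% and 25.5% of the Ctrl cells and 34.4% and 36.9% of the IHG cells. Cholesterol synthesis genes were lower there too, 11 of 15 with a median of -0.56, beside the same 28.6% of all genes. Among them were Cyp51, the sterol demethylase (65 and 30 UMIs, -2.25, -2.92 to -1.60), and Hmgcs1 (126 and 134 UMIs, -1.04, -1.41 to -0.68).

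Across the 8 fetal classes with at least 50 cells in both libraries, Scd2 was lower in IHG in 8 of 8, with log2 ratios from -0.81 to -0.11 and intervals below 0 in 5. The erythroid-like value, -0.11, was 0.026 under 1 of 9 alternatives. Of all measured genes, 10.8% (erythroid-like) to 36.7% (endothelial-like) were lower in a class, and the share lower in all 8 was not counted. Read against each class's own median of all genes, Scd2 lay below in 8 of 8, by 0.40 to 1.08. On that reading Scd2 was not alone. Dgat2 lay below in 6 of 6 classes where it was measured and Scd1 in 3 of 3. Acly and Srebf1 each lay below in 7 of 8, Elovl5 in 6 of 7 and Fasn in 6 of 8. Acaca lay below in only 2 of 7 and Elovl6 in 2 of 6. Myeloid progenitor-like cells had Scd2 at 92 and 297 UMIs (64.3 and 39.2 CPM, -0.71, -1.06 to -0.36) and basophil- or mast-like cells at 79 and 259 UMIs (91.8 and 59.4 CPM, -0.63, -0.996 to -0.245). Endothelial-like cells, whose cluster also had the stromal genes Dcn and Dlk1 among its leading genes, were at 121.9 and 106.7 CPM (-0.19, -0.65 to 0.29). Scd1 was measured in 3 of these classes and lower in 3 of 3. Read against 0 rather than the class median, no other member measured in more than 1 class had one direction in all of them. Fasn was lower in 5 of 8, Srebf1 in 5 of 8, Acly in 3 of 8, and Elovl6 was higher in 5 of 6. These classes share 2 libraries, so they are not independent of each other. Summed B markers (12 genes, of which 0 to 2 were at 0 in these sums) were also lower in IHG in the 7 fetal classes other than B-like: 520 and 238 CPM in hepatocyte-like, 481 and 133 in monocyte-like, 1055 and 119 in endothelial-like and 125 and 29.8 in neutrophil-like cells. In B-like cells Scd2 was 67.6 and 42.6 CPM beside B markers at 10985 and 12254 CPM. In Ctrl, Scd2 was above that B-like level in hepatocyte-like (149.8 CPM) and endothelial-like cells (121.9 CPM). It was below that level in monocyte-like (52.0 CPM) and neutrophil-like cells (14.9 CPM). The part of B cell RNA in the other classes was not tested.

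Me1 was counted in few classes. Fetal endothelial-like cells had 8 and 14 UMIs (18.8 and 9.58 CPM, -0.97, -2.32 to 0.49) and fetal IHG macrophage-like cells 9, while fetal B-, monocyte-, myeloid progenitor- and neutrophil-like cells had 0 and erythroid- and basophil- or mast-like cells 0 in Ctrl and 1 in IHG. In adult liver cholangiocyte-like cells had 65 and 24 UMIs (35.0 and 30.5 CPM, -0.20, -0.94 to 0.50) and mesothelial-like cells 11 and 2, while B-, T-, NK-, monocyte-, dendritic- and neutrophil-like cells had 0. For 0 UMIs in the adult B-like sums the count allows at most 0.709 CPM in Ctrl and 0.422 CPM in IHG, taking 3 counts as the limit.

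In adult liver Scd1 was read mainly in B-like cells. Scd1 had 1428 UMIs in 1845 Ctrl cells (337 CPM) and 1947 in 3417 IHG cells (274 CPM), a log2 ratio of -0.30 (-0.40 to -0.20) against a class median of -0.09. It was found in 48.3% of Ctrl and 39.8% of IHG B-like cells at a median of 2219 and 2007 UMIs per cell. Thinned to 1000 UMIs the shares were 28.5% and 23.9%, beside 0.54% and 0.327% of T-like cells. Scd1 was lower in IHG in 4 of 4 adult B-like clusters, with the interval below 0 in 2: cluster 6 (379 and 585 UMIs, -0.42, -0.61 to -0.23) and cluster 8 (676 and 818 UMIs, -0.33, -0.48 to -0.18). Scd2 had 55 and 42 UMIs (12.99 and 5.91 CPM), a ratio of -1.14 (-1.75 to -0.53), and Acly 145 and 186 UMIs (34.3 and 26.2 CPM), a ratio of -0.39 (-0.71 to -0.07). Of 7 measured members 6 were lower (median -0.30), 1 at least 2-fold lower (background 1.28%) and 0 at least 2-fold higher (background 0.822%), while 64.7% of all genes were lower in this class.

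Adult T-like cells (1548 and 1611) had Elovl5 at 291 and 270 UMIs (54.4 and 51.2 CPM, -0.09, -0.33 to 0.16). Acaca had 47 and 24 UMIs (8.79 and 4.55 CPM, -0.95, -1.72 to -0.21) and Srebf1 80 and 53 (14.96 and 10.1 CPM, -0.57, -1.10 to -0.05), both lower in IHG, although in cells thinned to 1000 UMIs Acaca had 6 and 9 UMIs and a ratio of 0.54. Scd2 (63 and 65 UMIs, 0.07, -0.46 to 0.59) and Acly (160 and 163, 0.05, -0.28 to 0.37) had intervals around 0. Of 9 measured members 6 were lower (median -0.32, all genes -0.05), near the 57.1% of all genes that were lower in this class. Of the 9, 0 were at least 2-fold lower or higher, against backgrounds of 1.54% and 1.18%.

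Scd1 was lower in IHG in 5 of 5 adult classes in which it was measured with at least 50 cells in both libraries, with the interval below 0 in 2. Of all measured genes, 44.7% (monocyte-like) to 64.7% (B-like) were lower in a class, and the share lower in all 5 was not counted. As at the fetal age, the classes share 2 libraries and are not independent of each other. NK-like cells had 17 and 8 UMIs (9.95 and 3.84 CPM, -1.38, -2.80 to -0.09) and monocyte-like cells 14 and 8, found in 7 and 4 cells (27.4 and 11.49 CPM, -1.26, -2.72 to 0.10). In NK-like cells the summed B markers were 214 CPM in Ctrl and 128 CPM in IHG, and in monocyte-like cells 492 and 361 CPM, against 7458 and 7378 CPM in B-like cells. They were thus lower in IHG along with Scd1, and their part in the Scd1 difference of these classes was not tested. Cholangiocyte-like cells had Dgat2 at 63 and 14 UMIs (34.0 and 17.8 CPM, -0.93, -1.88 to -0.08), Fasn at 55 and 23 (-0.02, -0.79 to 0.71) and Srebf1 at 49 and 21 (0.02, -0.80 to 0.78).

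Between ages the paired desaturase and elongase genes differed in opposite directions in B-like cells. Fetal B-like clusters were led by genes such as Vpreb1, Igll1 and Il7r, and adult ones by genes such as Ighd and Fcer2a. Scd1 was 30.1 CPM in fetal and 337 CPM in adult Ctrl B-like cells, a log2 ratio (adult over fetal) of 3.48 (3.32 to 3.65), and 22.4 and 274 CPM in the IHG pair, 3.61 (3.38 to 3.85). Scd2 went the other way, from 67.6 to 12.99 CPM in Ctrl (-2.38, -2.80 to -1.99) and from 42.6 to 5.91 CPM in IHG (-2.85, -3.35 to -2.38). Elovl6 had 320 fetal and 1 adult UMI in Ctrl, a ratio of -6.66 (-11.97 to -4.17), and 280 and 2 in IHG, -7.07 (-10.12 to -5.20), while Elovl5 was higher in adults in both pairs (1.61, 1.33 to 1.90, and 1.71, 1.38 to 2.06). Fasn did not share these differences, with 12.3 CPM at each age in Ctrl (-0.003, -0.48 to 0.45) and 11.1 and 11.95 CPM in IHG (0.11, -0.34 to 0.57).

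Against the fetal cluster with light chain genes alone, cluster 9, the direction of each was kept. Scd1 was at 2.83 (2.56 to 3.11) in Ctrl and 2.08 (1.77 to 2.41) in IHG, Scd2 at -2.95 (-3.39 to -2.52) and -3.52 (-4.09 to -2.98), Elovl6 at -6.18 (-11.51 to -3.62) and -5.69 (-8.83 to -3.64), and Elovl5 at 1.73 (1.22 to 2.27) and 1.57 (0.90 to 2.32). Age and library cannot be told apart, since each age of each group was 1 library with its own depth.

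In monocyte-like cells Scd2 was also lower and Elovl5 higher in adults. Scd2 had 89 fetal and 3 adult UMIs in Ctrl (-3.15, -5.45 to -1.55) and 174 and 2 in IHG (-3.89, -6.95 to -2.02), and Elovl5 was higher in adults (1.48, 0.73 to 2.22, and 1.02, 0.38 to 1.62). Elovl6 had 13 fetal and 1 adult UMI in Ctrl (-1.95, -7.36 to 0.78) and 26 and 2 in IHG (-1.15, -4.27 to 0.85), with intervals that included 0. Fasn was at -2.30 (-5.40 to -0.33) in Ctrl and -1.18 (-3.10 to 0.27) in IHG, and Acly at -1.01 (-1.98 to -0.17) and -0.92 (-1.78 to -0.15). Scd1 had 3 fetal and 14 adult UMIs in Ctrl (3.97, 2.13 to 6.41) and 3 and 8 in IHG (3.97, 1.91 to 6.52), beside summed B markers of 481 fetal and 492 adult CPM in Ctrl and 133 and 361 CPM in IHG, whose part was not tested. In neutrophil-like cells Elovl5 was 7.74 CPM in fetal and 61.4 CPM in adult Ctrl (2.99, 2.215 to 3.71) and 5.98 and 57.5 CPM in IHG (3.27, 2.22 to 4.16), or 1.69 and 1.92 under median-of-ratios scaling. Dgat2 was at like levels at both ages there, 47.9 and 47.4 CPM in Ctrl (-0.015, -0.81 to 0.68) and 55.8 and 41.8 CPM in IHG (-0.42, -1.63 to 0.57), but lower in adults under median-of-ratios scaling (-1.31 and -1.76).

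**Figure D4:**
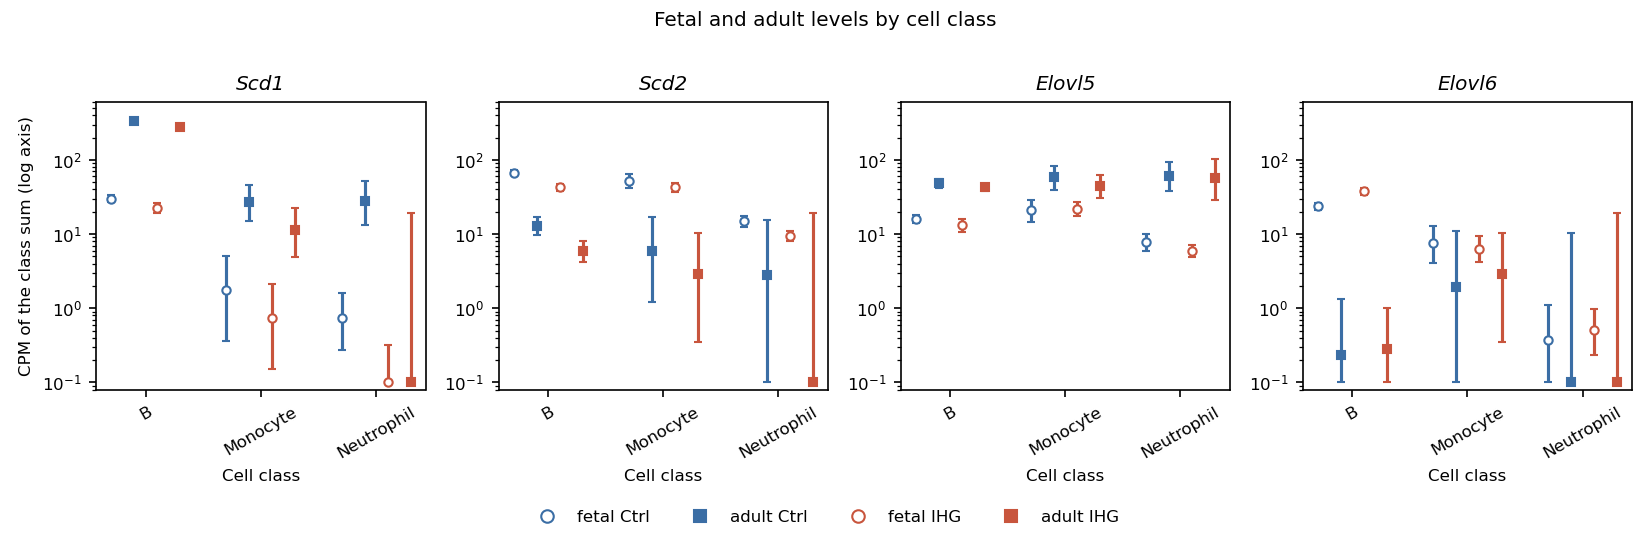
CPM on a log axis of Scd1, Scd2, Elovl5 and Elovl6 in B-, monocyte- and neutrophil-like cells, fetal (open circles) and adult (filled squares), Ctrl in blue and IHG in red, with exact Poisson 95% intervals. Values and limits under 0.1 CPM are drawn at 0.1. In B-like cells Scd1 goes from 30.1 to 337 CPM in Ctrl while Elovl6 goes from 23.9 to 0.236 CPM.

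The genes with the most alike pattern were sought over 35 class sums of at least 50 cells, among 7031 genes, by Pearson's r of log2(CPM + 10). These sums share 4 libraries and the values are descriptions. Scd1 was most like the B cell genes Ighd (0.84), Ms4a1 (0.84) and Cd22 (0.83), and its closest member was Elovl5 at 0.27. Elovl6 was most like genes of glycine and serine metabolism, Gcat (0.88), Psph (0.84) and Shmt1 (0.84), and Dgat2 most like Acsl1 (0.86), an acyl-CoA synthetase. Scd2 was most like Bet1 (0.87), Fasn like Hint2 (0.81), Elovl5 like Ifnar1 (0.92), Me1 like Ift43 (0.96), Srebf1 like Pkp4 (0.79), Acly like Tm9sf2 (0.79) and Acaca like Trmt1 (0.75). Among the members the closest pairs were Acly with Srebf1 (0.67) and Fasn with Scd2 (0.66), so the 10 genes did not share 1 pattern across liver cells.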

How the data were processed

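Livers of male mouse offspring were digested, red cells were lysed and single-cell 10x Genomics 3′ libraries were made, with portal vein perfusion first in adults, per the labels. The deposited values are raw UMI counts per gene and barcode, and the matrix headers name Cell Ranger 5.0.0 as the software the authors ran. The submitters' processing notes also name Seurat and mm10. All count columns were used.

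Kept barcodes had 300 or more genes and no more than 25% of UMIs from mitochondrial genes. Scrublet, run within scanpy 1.11.5 on each library, marked at its own threshold the doublets left out of the fetal libraries (128 in Ctrl, 270 in IHG). In adult libraries its threshold marked 0.0192% and 0.0147% of barcodes, under a minimum of 0.5%, so those above the 95th percentile were removed (241 and 329). Each age was clustered from log counts per 10000 with 2000 variable genes, without the 10 genes, related lists outside the markers, and mitochondrial or ribosomal genes (30 components, 15 neighbours, Leiden resolution 1). Clusters were named from marker lists for 19 classes. No name was given below 3 detected markers, where the 10 leading genes held more markers of a different class, or where cells were shallow and none of the class markers led. A cluster also stayed unnamed when the 2 best scores lay within 0.1, a margin chosen after the data were seen. Unnamed clusters held 413 Ctrl and 306 IHG fetal cells. The study may use other names.

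UMIs were summed per class and library and divided by the class total (CPM). Ratios carry exact conditional Poisson 95% intervals and levels exact Poisson ones. List medians add 0.5 to each count. A gene at least 2-fold apart counts as past the fold. Genes with 0 UMIs have a limit of 3 counts. No model or test was fitted, since each group has 1 library. The interval and ratio steps were tested on simulated data. All 10 members were described in each class with enough cells, with related lists and, by likeness, the 3 nearest genes. Members and lists were chosen with earlier results of these data known. Alternatives changed scaling, the genes in the total, the UMI minimum, depth, the mitochondrial maximum, resolution, doublets, the leading cell and haemoglobin-rich cells, and, added after the data were seen, the erythroid stage.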

Additional observations from a re-analysis of the deposited data

How the results depend on the processing

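No paired analysis was possible because each group has 1 library, and for the same reason no replicate could be left out. The medians of the 10 genes in 6 classes gave 51 alternative values, of which 44 lay within the median half-width of the members' counting intervals, 3 lay outside it and 4 changed direction. In fetal hepatocyte-like cells the median stayed below 0 under all 9 alternatives and was -2.06 in cells thinned to 1000 UMIs, where only 1 gene was measured. In fetal erythroid-like cells the median of 0.79 was 0.13 under median-of-ratios scaling and 0.42 with the total without haemoglobin, mitochondrial and ribosomal genes. It was -0.45 with a mitochondrial maximum of 50%, where the early cluster stayed unnamed, -0.076 in the cluster with the lowest haemoglobin share and -0.59 without that cluster. In fetal B-like cells the median was 0.13 in thinned cells. The cause of the change with thinning was not tested.

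For 1 gene in 1 class or between ages, 447 alternative values of 89 results were computed, and 12 changed direction, counting only genes whose reported interval excluded 0. In erythroid-like cells Fasn was -0.094 thinned, -0.45 with the 50% maximum and -0.67 without the early cluster. Elovl5 was -0.77, -0.48 and -0.42 in the same order and -0.041 in the early cluster alone. Elovl6 was -0.33 with the 50% maximum and -0.72 without the early cluster, and Acaca -0.076 in the early cluster alone. Dgat2 in neutrophil-like cells was -0.0079 under median-of-ratios scaling, and Acaca in adult T-like cells 0.54 thinned. Fasn, Scd1, Scd2 and Acly in hepatocyte-like cells and Scd1 in erythroid-like cells were below 0 under each alternative run. Dgat2 in hepatocyte-like cells, near 0 as reported, was -0.63 with the 50% maximum, -0.73 without haemoglobin-rich cells and 1.64 thinned, on 4 and 12 UMIs. For members with few UMIs, such as Me1 and Elovl5 in hepatocyte-like cells, depth set the limit of what could be read.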
